A study of Homo sapiens with 4 samples.

Results

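Growth factor receptor tyrosine kinases sit in the cell surface, bind a secreted or cell-bound ligand on the outside, pair up and phosphorylate tyrosines on the inside. Adaptor proteins that dock on these tyrosines pass the signal to the RAS-ERK and PI3K-AKT pathways, which drive growth and survival. In liver, the receptors for HGF, insulin and FGF19 are known for regeneration, glucose control and bile acid control, and in lung cancer EGFR and MET are known drug targets. The 10 receptors described here were chosen by symbol, without a measured value in the rule: EGFR, ERBB2 and ERBB3 of the ERBB family, MET (the HGF receptor), IGF1R and INSR of the insulin receptor family, FGFR1 and FGFR4 of the FGF receptors, AXL (the GAS6 receptor) and EPHA2 (an ephrin receptor). These 10 genes were among 18365 genes with a probe of their own, and they had 18 of the 31741 probes on the array. ERBB2, FGFR4, AXL and EPHA2 had 1 probe each, MET, IGF1R, INSR and FGFR1 had 2 each, and EGFR and ERBB3 had 3 each. No probe named one of the 10 together with another gene.

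RNA was measured in HepG2, a human liver cancer line, and in A549, a human lung cancer line, each as a control culture and after 10 μM GSK343 for 6 h. GSK343 is a small-molecule inhibitor of EZH2, the enzyme that methylates histone H3 at lysine 27. There were 4 groups, HepG2 control, HepG2 GSK343, A549 control and A549 GSK343, with 1 Cy5-labelled array of Human OneArray Plus in each. All cultures were kept in medium with serum, and the labels do not say what the control cultures received. With 1 array per group a GSK343 difference within a line had no test. The cell line difference was seen in 2 pairs of arrays, the controls and the GSK343 arrays, and was tested over all 4 arrays with limma.

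The array medians were 475.8, 449.8, 460.1 and 498.8 intensity units for HepG2 control, HepG2 GSK343, A549 control and A549 GSK343. Both lines bore out their labels in part. All 9 liver genes with a value were higher in HepG2, by 4.80 to 11.74 log2 units between the controls, and ALB read 184685 in HepG2 control against 54.1 in A549 control. Of 8 lung epithelial genes, ABCA3 and SFTPD were higher in A549, with HepG2 minus A549 at -3.63 and -1.04 log2 units, while the other 6 were within 1 log2 unit of HepG2. The surfactant genes SFTPA1, SFTPB, SFTPC and SFTPD read between 30.3 and 185.1 on the 4 arrays by their brightest probes, below every array median, so these defining lung markers did not set A549 apart. VIM, CAV1 and CAV2, which A549 is known to carry, were higher in A549, with HepG2 minus A549 at -12.49, -10.41 and -6.99 log2 units, and ZEB1 stood at -0.62. The 9 blood, endothelial and fibroblast genes with a value had a median difference of 0.28 between the control arrays. Of these, 2 endothelial genes were higher in HepG2 by at least 1 log2 unit, VWF at 1.93 and PECAM1 at 1.10, and 0 were lower by that size. Each array read the RNA of a whole culture, so fewer cells with a transcript and less of it per cell cannot be told apart.

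The promoter sequences of the receptors that differed most between the lines are shown first, since these starts belong to genes that one line read many times brighter than the other. The sequences are from RefSeq on GRCh38.p14, 250 bases before to 50 bases after each start on the gene's own strand. A window was found for 8 of the 10 receptors, ERBB3 had none in the table used, and FGFR1 was not analysed for sequence. AXL, FGFR4, MET and EGFR are the 4 of those 8 with the largest difference between the control arrays. Capitals mark the letters of 4 motifs on either strand: the GC box GGGCGG, the AP-1 site TGAGTCA, the E-box CACCTG and the HNF1 half-site GTTAAT.
AXL, chr19:41218973-41219272, plus strand: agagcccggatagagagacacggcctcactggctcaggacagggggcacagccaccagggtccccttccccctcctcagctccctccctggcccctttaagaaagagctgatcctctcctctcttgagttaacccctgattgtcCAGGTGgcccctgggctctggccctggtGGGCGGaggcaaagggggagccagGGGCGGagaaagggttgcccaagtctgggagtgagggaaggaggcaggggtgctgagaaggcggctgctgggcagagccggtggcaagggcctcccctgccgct
FGFR4, chr5:177086665-177086964, plus strand: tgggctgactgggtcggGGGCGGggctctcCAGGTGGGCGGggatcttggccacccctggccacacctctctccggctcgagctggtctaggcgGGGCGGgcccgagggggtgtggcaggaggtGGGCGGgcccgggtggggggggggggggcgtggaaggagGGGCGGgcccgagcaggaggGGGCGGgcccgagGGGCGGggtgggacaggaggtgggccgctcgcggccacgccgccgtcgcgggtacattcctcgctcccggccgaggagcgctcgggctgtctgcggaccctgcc
MET, chr7:116671946-116672245, plus strand: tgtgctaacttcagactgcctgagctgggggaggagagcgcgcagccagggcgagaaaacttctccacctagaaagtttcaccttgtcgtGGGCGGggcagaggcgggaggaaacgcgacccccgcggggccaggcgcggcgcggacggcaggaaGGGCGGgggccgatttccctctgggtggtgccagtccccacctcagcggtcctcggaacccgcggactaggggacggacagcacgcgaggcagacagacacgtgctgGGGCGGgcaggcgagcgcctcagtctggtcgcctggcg
EGFR, first window, chr7:55018767-55019066, plus strand: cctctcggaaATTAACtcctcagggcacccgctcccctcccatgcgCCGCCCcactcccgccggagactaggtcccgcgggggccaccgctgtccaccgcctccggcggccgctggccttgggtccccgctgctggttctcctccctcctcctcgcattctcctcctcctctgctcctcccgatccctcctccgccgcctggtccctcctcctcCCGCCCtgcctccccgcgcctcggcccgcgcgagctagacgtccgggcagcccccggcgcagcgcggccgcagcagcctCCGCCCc
EGFR, second window, chr7:55109589-55109888, plus strand: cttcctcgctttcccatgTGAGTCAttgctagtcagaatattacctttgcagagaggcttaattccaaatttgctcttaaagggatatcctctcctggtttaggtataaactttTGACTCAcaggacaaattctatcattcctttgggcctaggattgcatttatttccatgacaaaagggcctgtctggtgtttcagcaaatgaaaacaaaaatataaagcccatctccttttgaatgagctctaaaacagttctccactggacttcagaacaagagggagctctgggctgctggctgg

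The AXL window held 2 GC boxes and 1 E-box. The FGFR4 window held 7 GC boxes and 1 E-box, which shares 1 base with a GC box, and the MET window held 3 GC boxes. The first EGFR window held 3 GC boxes and 1 HNF1 half-site, and the second, which lies downstream in the gene, held 2 AP-1 sites. A second window of AXL and one of FGFR4 held none of these letters. Among all 35116 windows of the table, 45% held a GC box, 20.6% the E-box, 6.88% the HNF1 half-site and 4.95% the AP-1 site. A match is a description of letters in a window and no measure of a factor.

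The receptors differed between the lines. For each of the 18 probes, the 2 HepG2 arrays and the 2 A549 arrays did not overlap. The share of all probes without overlap was not counted, so that count has no background. Between the control arrays, ERBB3, FGFR4, INSR and ERBB2 were higher in HepG2 by at least 1 log2 unit, and AXL, MET, EGFR and FGFR1 were higher in A549 by at least that size. That was 4 of 10 receptors higher, where 13% of all genes were, and 4 of 10 lower, where 13.7% of all genes were. Between the GSK343 arrays 3 of 10 were higher in HepG2, against 10.9% of all genes, and 6 of 10 lower, against 14.6%. ERBB3, INSR and FGFR4 were higher in both pairs (3 of 10, against 8.92% of all genes) and EGFR, MET, FGFR1 and AXL lower in both (4 of 10, against 11.2%). The differences between the lines exceeded the spread among probes of one gene, 0.92 log2 units over 7424 probe pairs, for 8 receptors in the control pair, where 29.4% of all genes did so. In limma, which fits line and GSK343 together, 17 of the 18 receptor probes passed an adjusted p of 0.05 for the line, 7 higher and 10 lower in HepG2, against 32.7% of all 31607 probes tested. The 4 arrays left 1 residual degree of freedom, and limma added a variance pooled over all probes, worth 5.89 degrees of freedom. These p-values therefore rest largely on the pooled variance. How far the control pair and the GSK343 pair gave the same line difference counts in part. A probe whose pairs disagreed could still pass, as the second MET probe did at -1.34 and -3.49 log2 units. There was 1 culture behind each array.

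**Figure D1:**
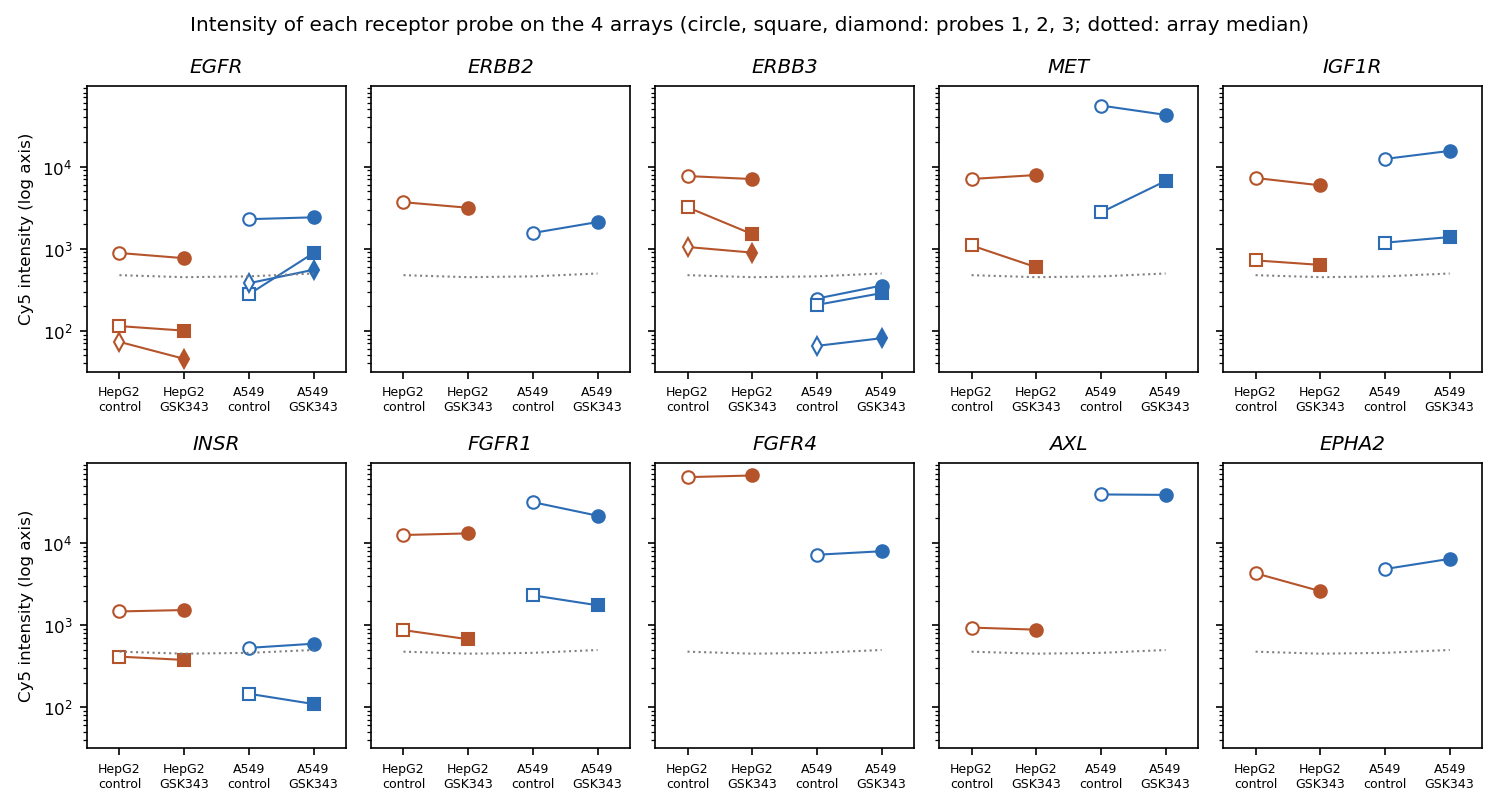
Intensity of every receptor probe on the 4 arrays, on a log axis, with 1 point per array. The gaps between the 2 arrays of HepG2 and the 2 arrays of A549 are widest for AXL and ERBB3.

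EGFR, the receptor for EGF and TGFA, was brighter in A549 by all 3 probes. Its brightest probe read 886.8 in HepG2 control, 766.2 in HepG2 GSK343, 2290 in A549 control and 2413 in A549 GSK343. The second read 114.0, 100.3, 278.0 and 884.1 in the same order, and the third 73.2, 45.5, 379.5 and 553.5. Both dimmer probes were under the array median in HepG2, and each reached it on 1 A549 array alone, so the bright probe is the firmer of the 3. As a gene mean, EGFR was 3.20-fold higher in A549 between the controls and 6.96-fold higher between the GSK343 arrays. In limma HepG2 minus A549 was -1.51 log2 units for the bright probe (SE 0.21, adjusted p = 0.00164) and -2.21 (SE 0.40, adjusted p = 0.00535) and -2.99 for the others (SE 0.30, adjusted p = 0.000310).

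ERBB3, which binds neuregulins and signals mainly through its partner ERBB2, went the other way and was the receptor with the largest excess in HepG2. The first of its 3 probes read 7682 and 7060 in HepG2 control and GSK343 and 246.7 and 355.0 in A549. The second read 3198 and 1505 in HepG2 and 206.8 and 287.5 in A549, and the third 1049 and 896.5 against 65.5 and 81.2. All 3 were below the array median in A549 and above it in HepG2. ERBB3 was 19.8-fold higher in HepG2 between the controls, at the 98.8th percentile of all genes, and 10.5-fold higher between the GSK343 arrays. The limma differences were 4.64 (SE 0.24, adjusted p = 1.09e-05), 3.17 (SE 0.36, adjusted p = 0.000540) and 3.73 log2 units (SE 0.21, adjusted p = 1.77e-05).

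ERBB2, the ligandless partner of the family, had 1 probe, at 3687 and 3154 in HepG2 and 1554 and 2113 in A549. It was 2.37-fold higher in HepG2 in control and 1.49-fold with GSK343. The mean line difference was 0.91 log2 units (limma, SE 0.25, adjusted p = 0.0284), the smallest of the called differences higher in HepG2.

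MET, the receptor for hepatocyte growth factor, was higher in A549. Its bright probe read 7076 in HepG2 control, 7905 in HepG2 GSK343, 55532 in A549 control and 42763 in A549 GSK343. Its second probe read 1095, 594.5, 2767 and 6692. The line difference had the same sign in both probes, with limma values of -2.70 (SE 0.23, adjusted p = 0.000130) and -2.42 log2 units (SE 0.46, adjusted p = 0.00672). MET was 4.45-fold higher in A549 between the controls and 7.80-fold between the GSK343 arrays, and with the bright probe alone the log2 differences were -2.97 and -2.44.

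The insulin receptor family divided. INSR, the insulin receptor, read 1471 and 1530 in HepG2 and 529.3 and 594.6 in A549 by its first probe, and 414.1 and 377.4 against 146.1 and 109.5 by its second, which was under every array median. It was 2.81-fold higher in HepG2 between the controls and 2.98-fold between the GSK343 arrays. Both probes passed the limma test, at 1.42 (SE 0.20, adjusted p = 0.00171) and 1.64 log2 units (SE 0.20, adjusted p = 0.000722). IGF1R, the receptor for IGF1, ran the opposite way at 7279 and 5920 in HepG2 and 12414 and 15566 in A549, and by its second probe at 720.5 and 634.9 against 1184 and 1387. It was 1.67-fold higher in A549 between the controls, under the counted size, and 2.40-fold between the GSK343 arrays. Its probes also passed, at -1.08 (SE 0.24, adjusted p = 0.0136) and -0.92 log2 units (SE 0.22, adjusted p = 0.0161).

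The FGF receptors divided as well. FGFR4, which with the co-receptor KLB receives FGF19 in hepatocytes, read 63773 and 66764 in HepG2 and 7222 and 7968 in A549. This was 8.83-fold higher in HepG2 between the controls and 8.38-fold between the GSK343 arrays (limma 3.10 log2 units, SE 0.21, adjusted p = 3.55e-05). FGFR1, which serves FGF2 in many tissues, read 12566 and 13144 in HepG2 and 31598 and 21603 in A549, and by its second probe 871.1 and 674.2 against 2313 and 1749. FGFR1 was 2.58-fold higher in A549 between the controls and 2.06-fold between the GSK343 arrays (limma -1.02, SE 0.24, adjusted p = 0.0157, and -1.39 log2 units, SE 0.20, adjusted p = 0.00203).

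AXL had the widest gap of the 10. Its probe read 935.9 in HepG2 control, 882.0 in HepG2 GSK343, 39215 in A549 control and 38752 in A549 GSK343. The receptor was 41.9-fold higher in A549 between the controls and 43.9-fold between the GSK343 arrays (limma -5.42 log2 units, SE 0.21, adjusted p = 3.27e-06), at the 0.845th percentile of all genes in the control pair. EPHA2, whose ligands include EFNA1, differed least between the control arrays. It read 4294 in HepG2 control, 2599 in HepG2 GSK343, 4836 in A549 control and 6431 in A549 GSK343. EPHA2 was 1.13-fold higher in A549 between the controls and 2.47-fold between the GSK343 arrays, and its mean difference of -0.74 log2 units missed the threshold (limma, SE 0.30, adjusted p = 0.110).

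**Figure D2:**
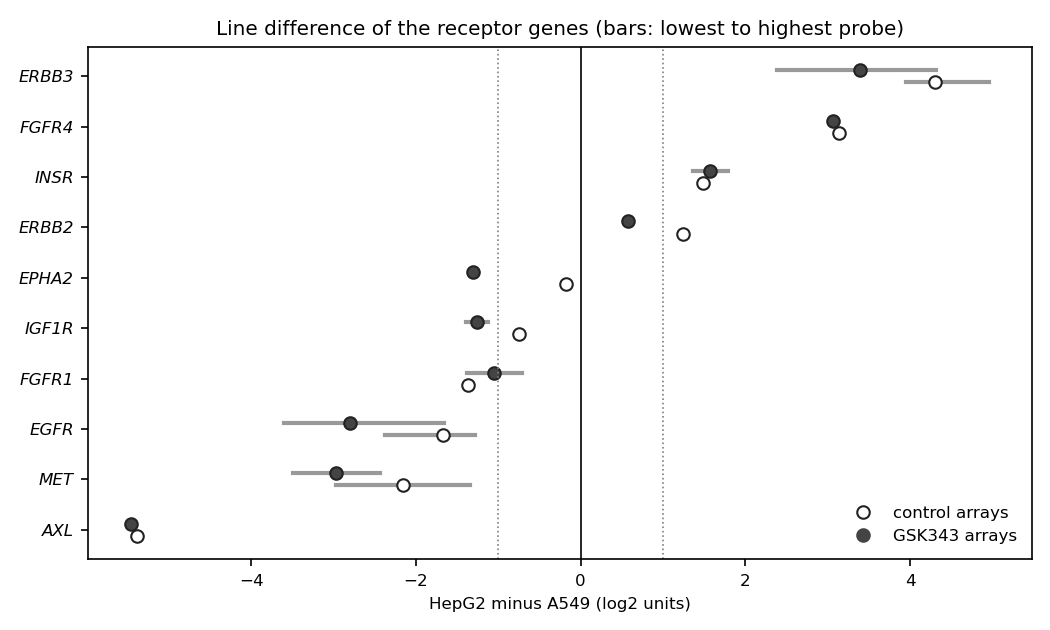
Log2 intensity in HepG2 minus A549 for each receptor, in the control pair and in the GSK343 pair, with bars from the lowest to the highest probe. Values above 0 are higher in HepG2: ERBB3 and FGFR4 lie highest at 4.30 and 3.14 in the control pair and AXL lowest at -5.39.

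In order of the control-pair log2 difference, ERBB3 (4.30), FGFR4 (3.14), INSR (1.49), ERBB2 (1.25), EPHA2 (-0.17), IGF1R (-0.74), FGFR1 (-1.37), EGFR (-1.68), MET (-2.16) and AXL (-5.39) ran from HepG2 to A549. Set against that spread of 0.92 log2 units, the steps from ERBB3 to FGFR4, FGFR4 to INSR, ERBB2 to EPHA2 and MET to AXL exceeded it and the other neighbours lay closer together. In the GSK343 pair the order was ERBB3 (3.39), FGFR4 (3.07), INSR (1.57), ERBB2 (0.58), FGFR1 (-1.05), IGF1R (-1.26), EPHA2 (-1.31), EGFR (-2.80), MET (-2.96) and AXL (-5.46). EGFR and MET, side by side in both orders, were also each other's nearest gene in pattern. Among 57 other receptor tyrosine kinase genes, MET had the smallest distance to EGFR, a root mean square difference of 0.195 log2 units over the 4 arrays after centring each gene. The nearest gene to FGFR4 was AATK (0.0356), followed by the AXL relative MERTK (0.0790). IGF1R lay nearest to LMTK3 (0.0833), FGFR1 to EPHA5 (0.131), INSR to FGFRL1 (0.149), ERBB2 to LTK (0.156), EPHA2 to IGF1R (0.221) and ERBB3 to PDGFRB (0.281). AXL lay nearest to EPHB2 at 0.576, the widest nearest distance of the 10. With 4 arrays these distances rank patterns that are mostly the line difference.

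Other receptor tyrosine kinases moved both ways between the lines. Of 48 with a value, 7 were at least 1 log2 unit higher in HepG2 in both pairs and 8 were lower, against 8.92% and 11.2% of all genes. FGFR3, a relative of FGFR4, read 45671 in HepG2 control against 1774 in A549 control, which was 4.69 log2 units higher (limma adjusted p = 5.88e-06). EPHA1 and PDGFRB were also higher in HepG2, by 5.13 and 3.54 log2 units between the controls. EPHB2, ROR1 and NTRK3 were higher in A549, with HepG2 minus A549 at -4.50, -4.41 and -3.80 log2 units as gene means.

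Several ligands lay far higher in A549. Of 31 with a value, 2 were higher in HepG2 in both pairs and 8 lower, beside 8.92% and 11.2% of all genes. EREG, a ligand of EGFR, read 56.5 and 48.6 in HepG2 and 6056 and 6548 in A549 (limma -6.91 log2 units, adjusted p = 1.33e-06). NRG1, the neuregulin that ERBB3 binds, was lower in HepG2, at -6.11 log2 units between the controls as the mean of 6 probes, each past the limma threshold, whereas ERBB3 itself was higher there. FGF2 stood at -6.17 and EFNA5, an ephrin, at -7.02 log2 units, both lower in HepG2. GAS6, the ligand of AXL, read 565.8 and 578.0 in HepG2 and 2007 and 1911 in A549 (limma -1.78 log2 units, adjusted p = 0.000585), the same side as AXL. EFNA1 was higher in HepG2 by both probes, at 2.62 (adjusted p = 0.000191) and 3.18 log2 units (adjusted p = 4.25e-05) in limma. EGF, TGFA, HBEGF and IGF1 differed by 0.37, -0.21, -0.09 and 0.41 log2 units. The brightest of 3 HGF probes read 152.7, 164.4, 152.7 and 131.1 on the arrays, and FGF19 read 324.2, 351.6, 278.9 and 309.0. All of these were below the array medians, so neither HGF nor FGF19 was read above the middle of any array.

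Of 17 co-receptors and binding proteins, 4 were higher in HepG2 in both pairs and 8 lower, against the same 8.92% and 11.2% of all genes. KLB, the co-receptor of FGFR4 for FGF19, read 6954 and 4190 in HepG2 and 163.2 and 207.3 in A549 by its brightest probe, and its 2 probes were higher by 4.88 (adjusted p = 1.99e-05) and 5.44 log2 units (adjusted p = 3.60e-06) in limma. The proteoglycans GPC3 and SDC2 were higher in HepG2 by 10.08 and 8.02 log2 units between the controls. IGFBP3, which binds the IGF ligands of IGF1R, stood at -6.23 log2 units, lower in HepG2, as did IGFBP6, IGFBP4 and IGFBP7 at -4.18, -3.95 and -3.99. IGFBP2 was also lower, at -2.90, and IGFBP5 stood at 0.27. IGFBP1 went the other way, higher in HepG2 by 1.76 between the controls (limma 1.47 log2 units, adjusted p = 0.00334).

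Adaptors were split, with 4 of 27 higher and 3 lower in both pairs, where 8.92% and 11.2% of all genes were. IRS1, the adaptor of INSR and IGF1R, differed by -0.75 log2 units, and the 2 probes of IRS2 disagreed, at -5.86 (adjusted p = 2.46e-06) and 0.06 log2 units (adjusted p = 0.876) in limma. SHC2 was higher in HepG2 by 3.81 log2 units. The list of genes downstream of the receptors held kinases together with HRAS and STAT genes. None of these 17 genes differed by 1 log2 unit in both pairs. By limma 0 of their 27 probes were higher and 7 were lower in HepG2, where 4811 and 5510 of all 31607 probes were. Of 32 inhibitors and turnover proteins, 9 were higher in HepG2 in both pairs and 6 lower, against 8.92% and 11.2%. ERRFI1, which binds and inhibits EGFR, was higher in HepG2 by 1.06 log2 units (limma adjusted p = 0.00896), and SPRY1 and the ligase RNF43 were higher by 3.49 and 4.17, while NEDD4 and SOCS2 were lower at -2.57 and -3.37.

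**Figure D3:**
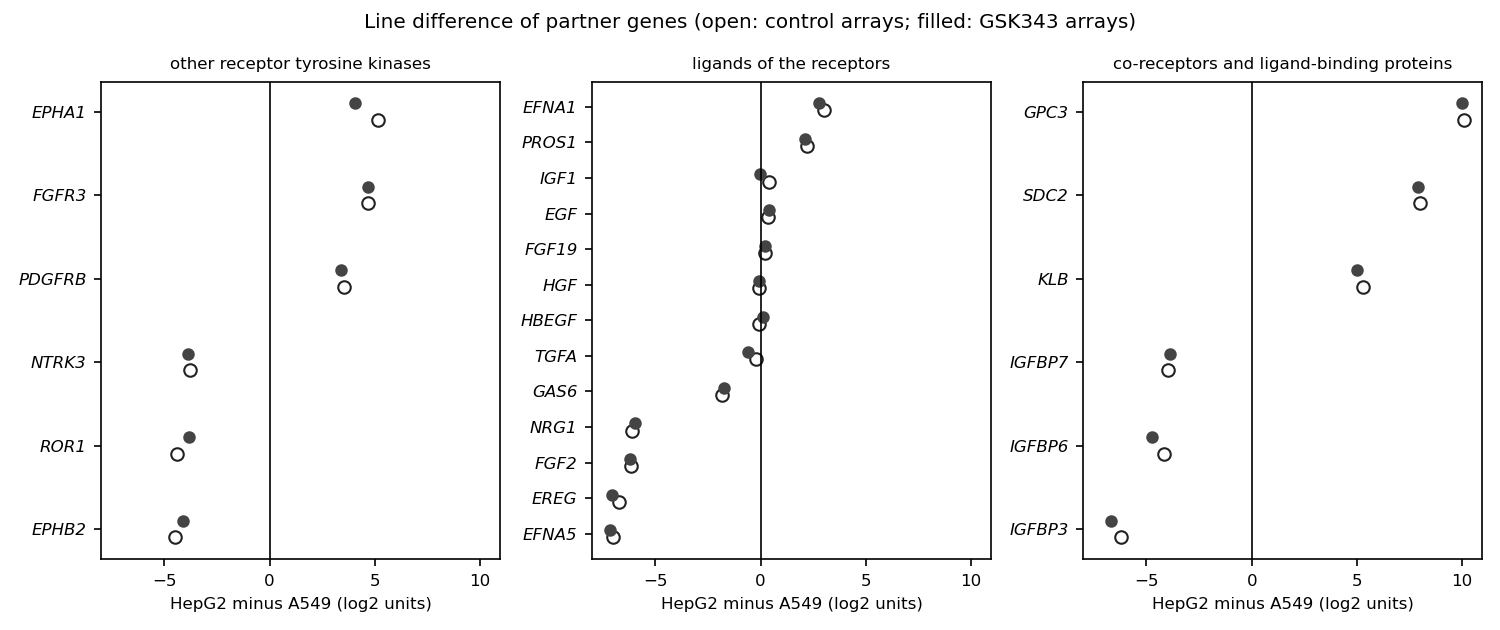
Log2 intensity in HepG2 minus A549 for direct partners and the genes with the largest differences. The lists shown are other receptor tyrosine kinases, ligands, and co-receptors with binding proteins. Open points are the control pair and filled points the GSK343 pair. In the control pair the co-receptors run from GPC3 at 10.08 to IGFBP3 at -6.23 and the ligands reach -7.02 for EFNA5.

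No receptor differed with GSK343 by 1 log2 unit as a gene mean in either line. In HepG2 this was 0 of 10 higher, against 0.458% of all genes, and 0 of 10 lower, against 1.87%. In A549 it was 0 of 10 higher, against 0.932%, and 0 of 10 lower, against 0.534%. Over both lines limma gave 0% of probes an adjusted p past 0.05 for GSK343, with 1287 of 31607 at an unadjusted p under 0.05, and the lowest adjusted p of a receptor probe was 0.99978. That term averages the lines and counts their disagreement as error, so it cannot speak to differences of opposite sign in the lines. The signs of the gene means differed between the lines, a difference that was not tested. In HepG2, 9 of 10 receptors were below 0, where 53.3% of all genes were. In A549, 7 of 10 were above 0, where 54.7% were. These signs depended in part on the probe. By the brightest probe alone, MET (0.16), INSR (0.06) and FGFR1 (0.06) stood above 0 in HepG2, as FGFR4 did. In A549 that probe put INSR above 0 at 0.17 and MET below 0 at -0.38. The receptors' median difference was -0.23 log2 units in HepG2 (all genes -0.02) and 0.34 in A549 (all genes 0.04).

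**Figure D4:**
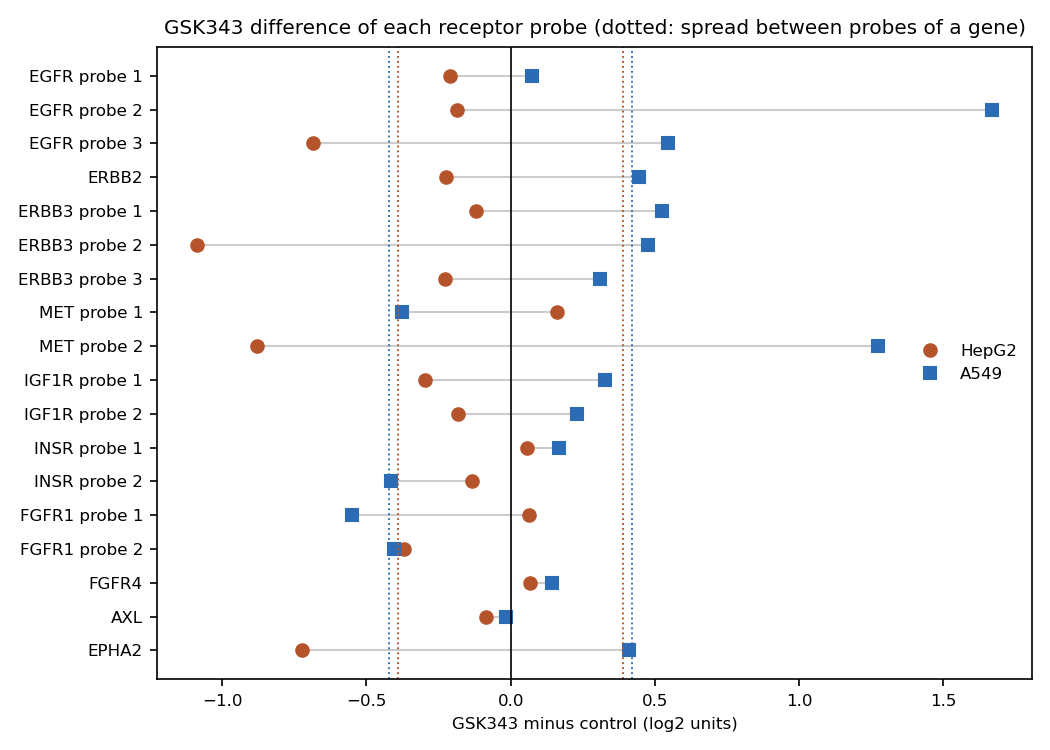
Log2 intensity with GSK343 minus control for each receptor probe in HepG2 and in A549, with dotted lines at the spread among probes of one gene. The second ERBB3 probe lies lowest in HepG2 at -1.09 and the second EGFR probe highest in A549 at 1.67. Gene means are not drawn.

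In HepG2, EPHA2 was lowest, at -0.72 log2 units by its 1 probe, and ERBB3 stood at -0.48 as the mean of probes at -0.12, -1.09 and -0.23. These were the 2 receptors beyond the spread among probes of one gene in this comparison, 0.39 log2 units, which 16.3% of all genes exceeded. The ERBB3 probe at -1.09 was the single receptor probe lower by 1 log2 unit (1 of 18, against 2.27% of single-gene probes), and 0 of 18 were higher (against 0.568%). EGFR (-0.36), MET (-0.36), IGF1R (-0.24), ERBB2 (-0.23), FGFR1 (-0.15), AXL (-0.09) and INSR (-0.04) were nearer to 0, and FGFR4 stood at 0.07. The 2 MET probes had opposite signs in HepG2, 0.16 for the bright probe and -0.88 for the dimmer.

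In A549, EGFR stood at 0.76 as the mean of probes at 0.08, 1.67 and 0.54, and the bright probe was the one near 0. MET stood at 0.45 from probes at -0.38 and 1.27, so its sign depended on the probe, with the bright probe below 0. ERBB2 and ERBB3 both stood at 0.44, and the 3 ERBB3 probes were dim but all above 0, at 0.53, 0.48 and 0.31. FGFR1 stood at -0.48, with both probes below 0. These 5 exceeded the spread of 0.42 log2 units in A549, as 17.7% of all genes did. EPHA2 (0.41), IGF1R (0.28) and FGFR4 (0.14) were above 0 and within it, and AXL (-0.02) and INSR (-0.12) were just below 0. By probe, 2 of 18 were higher by 1 log2 unit, the dim EGFR and MET probes (against 1.58% of single-gene probes), and 0 of 18 were lower (against 0.636%).

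EGFR, ERBB2, ERBB3, MET, IGF1R and EPHA2 were lower with GSK343 in HepG2 and higher in A549, whatever the size. That was 6 of 10 receptors, against 33.2% of all genes. By probe it was 11 of 18, against 33.2% of all single-gene probes, and probes of one gene are not independent. As gene means, FGFR1, INSR and AXL were below 0 in both lines and FGFR4 above 0 in both. INSR, however, moved to 0.03 in HepG2 under median centring and under quantile normalization. The 2 INSR probes also disagreed in sign in both lines. The brighter stood at 0.06 in HepG2 and 0.17 in A549, and the dimmer at -0.13 and -0.42. The bright FGFR1 probe stood at 0.06 in HepG2. After quantile normalization FGFR4 turned to -0.06 in HepG2 and AXL to 0.11 in A549, giving 8 of 10 against 25.3% of genes, and after median centring it was 6 of 10 against 20.4% of genes, so the share among all genes moved with the scaling. The difference of the GSK343 effect, HepG2 minus A549, was widest for EPHA2 (-1.14), EGFR (-1.12) and ERBB3 (-0.92), and was -0.07 for AXL. This quantity is also the change of the line difference from the control pair to the GSK343 pair, since both come from the same 4 values.

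The lists around the receptors are given by their signs with GSK343, beside 46.7% of all genes above 0 in HepG2 and 54.7% in A549, and no difference between a list and the receptors was tested. Of the genes downstream of the receptors, 3 of 17 were above 0 in HepG2 (median -0.21) and 15 of 17 in A549 (median 0.36). SRC stood at -0.31 and 0.75, ARAF at -0.92 and 0.99, and MAP2K1 at -0.50 and 0.55, in HepG2 and A549. Of the co-receptors and binding proteins, 3 of 17 were above 0 in HepG2 and 16 in A549, and of the adaptors 8 of 27 and 21 of 28. The adaptor GRB10 read 7260 in HepG2 control and 9.31 in HepG2 GSK343, a spot close to 0 on 1 array, and 18565 and 27199 in A549. Ligands were above 0 for 21 of 31 in both lines, inhibitors for 10 and 17 of 32, and other receptor tyrosine kinases for 21 and 30 of 48. Median centring moved the A549 counts of adaptors from 21 to 14, of ligands from 21 to 15 and of other receptor tyrosine kinases from 30 to 23, since it lowered the median of all genes in A549 by 0.12 log2 units.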

How the data were processed

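RNA of HepG2 and A549 was read in the Cy5 channel of Human OneArray Plus, 1 array per condition. The authors deposited processed, linear intensity values for 31741 probes. The scanner, background correction and normalization are not given in the sources used here, and a dim probe carries no flag or background value. Probes were named by the platform annotation: 24740 named 1 gene, 977 several and 6024 none, and gene values came from the first kind alone, while limma was fitted to probes of all 3 kinds.

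Differences were taken on log2 of these values as they stood. Values of 0 or less were dropped (41, 91, 50 and 44 probes on the HepG2 control, HepG2 GSK343, A549 control and A549 GSK343 arrays). A gene was the mean over its probes, and a gene was counted as higher or lower from 1 log2 unit. The spread among probes of one gene was the SD of their pairwise differences, divided by the square root of 2. limma 3.58.1 (R 4.3.3) was fitted to all 4 arrays with line and GSK343 as terms and a mean-variance trend. Its two-sided p-values were adjusted by Benjamini-Hochberg over 31607 probes, and the script was tested on simulated data first. Other steps ran in Python 3.11.15 (pandas 2.3.3, numpy 2.4.6).

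The rule for the receptors used symbols and no measured value. Even so, the receptors, gene lists, motifs and tests were chosen with earlier results of these data known. The shares of receptors set beside those of all genes are therefore descriptions. Other genes were named if they were direct partners or among the 6 with the largest size past 1 log2 unit in a list and comparison, with a probe at the array median. Not every such gene is named. IGFBP1, IGFBP2 and IGFBP5 were added to show the other IGF-binding proteins of their list. The alternatives were median centring, quantile normalization, filters at the median and the 25th percentile, an offset of 50, a counting size of 1.5 log2 units, only the brightest probe of a gene, and probes shared by several genes. For limma they were no trend, robust eBayes and one term at a time. Precision is limited by the 4 arrays.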

Additional observations from a re-analysis of the deposited data

Results flagged for a closer look

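The 6 receptors EGFR, ERBB2, ERBB3, MET, IGF1R and EPHA2 ran one way with GSK343 in HepG2 and the opposite way in A549 on the 1 pair of arrays each line had, and the difference between the lines was not tested. ERBB3 was -0.48 log2 units in HepG2 and 0.44 in A549, a difference of -0.92. As a gene mean it was the only one of them beyond the spread among probes of one gene in both lines. In HepG2 this rested on its probe at -1.09, since the probes at -0.12 and -0.23 were within the spread of 0.39. Its probes were below the array median in A549. The same difference was -1.14 for EPHA2, -1.12 for EGFR, -0.81 for MET, -0.67 for ERBB2 and -0.52 for IGF1R. The 2 MET probes disagreed in sign in both lines, and by the bright probe alone MET ran the other way.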

How the results depend on the processing

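The counts of receptors kept within 1.5 times in all but 2 settings, both at a size of 1.5 log2 units: receptors higher in HepG2 between the controls went from 4 to 2, and receptors lower in HepG2 between the GSK343 arrays from 6 to 3. By construction a larger size counts fewer genes. With an offset of 50 limma called 2 probes for GSK343 in place of 0, and the cause was not tested. The line call of every receptor probe that could be fitted was the same in each limma setting, EPHA2 included, which stayed above the threshold. The brightest probe alone gave MET 0.16 in HepG2 and -0.38 in A549 with GSK343, against gene means of -0.36 and 0.45, and EGFR 0.08 in A549 against 0.76. For ERBB3 that probe gave -0.12 in HepG2 against -0.48. Each group had 1 array, so there was no replicate number to block on beside the line and GSK343 terms, and leaving out an array leaves no residual degree of freedom. Probes of EGFR, ERBB3 and INSR lay below the median on some or all arrays.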
